A study of Irpex lacteus with 9 samples.

Results

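The manganese peroxidase genes described here are the 4 genes NewGene_1816, NewGene_1819, BC629DRAFT_1292559 and BC629DRAFT_1583547 of the white-rot fungus Irpex lacteus, out of 19212 genes in the deposited table. They were chosen by their annotation, with earlier results of these data known. Each carries the KEGG orthology number K20205 for manganese peroxidase and the product name Manganese peroxidase 3, which comes from a Phlebia radiata protein. In all, 16 genes carry K20205 and 5 of these also carry that product name. The fifth, BC629DRAFT_1591871, was not among the 4 and is counted below with the other class II peroxidases. All 4 genes hold the Pfam domain "Fungal peroxidase extension region". The closest named protein was a manganese peroxidase of Irpex lacteus for 3 of them, and a melanin-decolorizing enzyme of Ceriporiopsis sp. MD-1 for BC629DRAFT_1292559.

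The transcripts came from fungus growing on wheat straw that had received distilled water (the control, CK in the sample titles), NH4Cl or NaNO3, with 3 libraries per group and 9 in all. The study asked how these inorganic nitrogen sources act on fermentation of the straw. All groups shared the straw and the fungus, and the labels used here give no strain, age of culture or amount of salt. A different fungus, Tricholoma album, stands in the text on the design, against Irpex lacteus in the title and in every sample label. Nothing in the labels says that the numbered libraries came from separate cultures, so p-values measure only the spread between these libraries. In such bulk samples, fewer hyphae that transcribe a gene and less RNA of that gene per hypha cannot be told apart.

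Manganese peroxidases are secreted haem enzymes of white-rot fungi. They use hydrogen peroxide to oxidise Mn2+ to Mn3+, which leaves the enzyme bound to organic acids such as oxalate and attacks phenolic parts of lignin. They belong to the class II fungal peroxidases, together with lignin peroxidases and versatile peroxidases. In other white-rot fungi their transcription is known to respond to manganese and, in some species, to nitrogen supply.

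Depth ran from 17896230 to 23194078 counts per library, and 14808 genes passed the filter on low counts, all 4 manganese peroxidase genes among them. A pair of libraries stood apart in the summed counts of the other class II peroxidases. These 12 genes together took between 3.60% and 5.36% of counts in 7 libraries, but 1.40% in NH4Cl replicate 3 and 0.295% in NaNO3 replicate 1. Results that rest on this pair are given with and without them.

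NewGene_1819 had the highest level of the 4 genes in every library. In FPKM, fragments scaled to gene length and library size, it had a mean of 5465 over the 9 libraries, with a range of 1930 to 9036. That placed it between rank 4 and rank 39 of all genes. BC629DRAFT_1583547 followed with a mean of 1877 FPKM and a range of 767 to 3391. BC629DRAFT_1292559 had a mean of 1328 FPKM, from 351 to 2372. NewGene_1816 had a mean of 1130 FPKM, from 448 to 2119.

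The order below NewGene_1819 was not the same everywhere. BC629DRAFT_1583547 was above NewGene_1816 in 9 of 9 libraries and above BC629DRAFT_1292559 in 8 of 9, the exception being water replicate 1. BC629DRAFT_1292559 and NewGene_1816 changed places: NewGene_1816 had the higher FPKM in 4 of 9 libraries, which were the 3 NH4Cl libraries and water replicate 3. The FPKM ranges of this pair overlapped in each group. Overlap of ranges does not use that both genes were measured in the same libraries. Within libraries, NewGene_1816 was the higher in all 3 NH4Cl libraries and the lower in all 3 NaNO3 libraries. BC629DRAFT_1583547 and BC629DRAFT_1292559 overlapped with water and NaNO3 and not with NH4Cl. NewGene_1819 and BC629DRAFT_1583547 overlapped with NaNO3 only.

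Together the 4 genes took 1.95%, 1.26% and 0.538% of all counts in water replicates 1, 2 and 3. The shares were 2.16%, 1.70% and 1.14% with NH4Cl, and 0.594%, 1.27% and 2.19% with NaNO3. Wilson 95% intervals, which cover counting error only, were narrow: 0.534% to 0.541% for the lowest share and 2.18% to 2.20% for the highest. The spread between libraries of a group was thus far wider than counting error. The 3 groups overlapped: the highest share was in NaNO3 replicate 3 and the next-highest in NH4Cl replicate 1. In CPM this order turned, with sums of 22557 and 22848. Whether reads are shared among the 4 genes was not tested, which limits these sums.

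In CPM, counts scaled to library size with trimmed-mean factors, NewGene_1816 stood at 2324, 1914 and 1015 in water replicates 1 to 3. It stood at 4633, 3757 and 2377 with NH4Cl and at 983, 2121 and 3170 with NaNO3. Every NH4Cl library lay above every water library, the lowest of the former and the highest of the latter being close, and the NaNO3 libraries spanned the water range on both sides.

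BC629DRAFT_1583547 followed the same course. Its CPM was 2131, 1718 and 923 with water, 4153, 3276 and 2020 with NH4Cl, and 860, 1994 and 2885 with NaNO3. The lowest NH4Cl library fell just below the highest water library in CPM, while in FPKM these groups did not overlap.

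NewGene_1819, the most abundant, had 13127, 7750 and 3195 CPM with water. It had 11877, 8684 and 4978 CPM with NH4Cl, and 2389, 8302 and 13663 CPM with NaNO3. The 3 group means were close, at 8024 ± 4972, 8513 ± 3453 and 8118 ± 5639 CPM (SD, n = 3 each), and the groups overlapped almost fully. BC629DRAFT_1292559, the gene nearest the melanin-decolorizing enzyme, had 2426, 1181 and 422 CPM with water, 2185, 1646 and 1193 CPM with NH4Cl, and 774, 1459 and 2838 CPM with NaNO3. Its groups also overlapped.

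**Figure D1:**
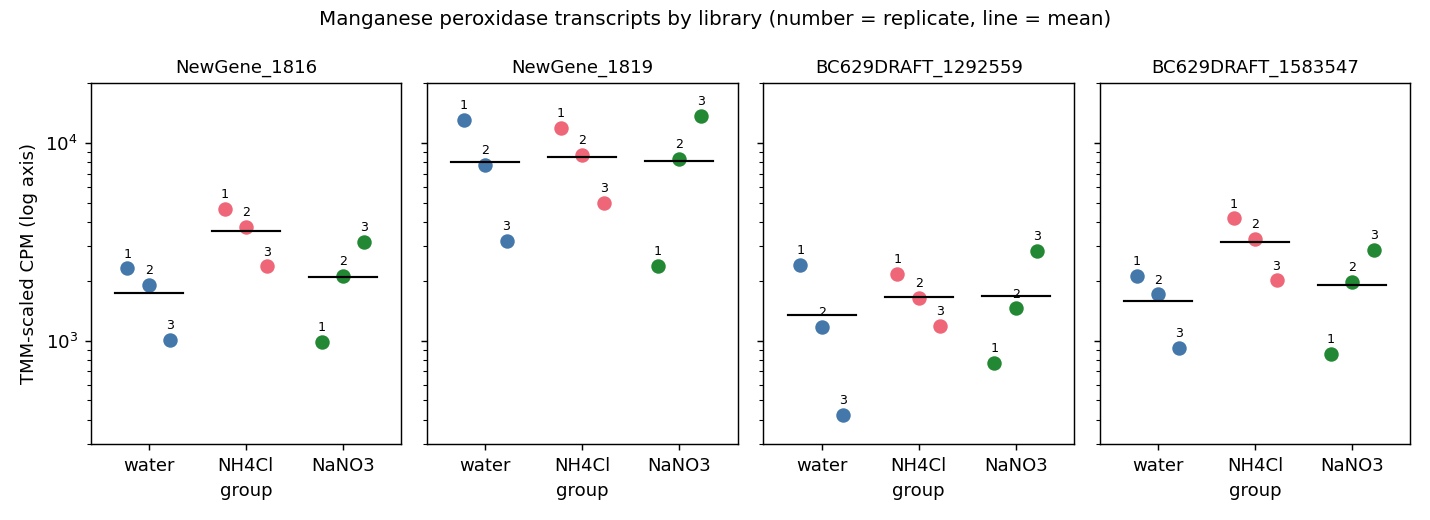
Each point is the CPM of a manganese peroxidase gene in 1 library (log axis), by group, with the replicate number beside it and a line at the group mean. NewGene_1816 and BC629DRAFT_1583547 have their highest group mean with NH4Cl, at 3589 and 3150 CPM, and in all 4 genes the highest and lowest libraries of a group are the same.

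Within each group the 4 genes ranked the libraries alike at the ends. The highest library was replicate 1 with water, replicate 1 with NH4Cl and replicate 3 with NaNO3 for 4 of 4 genes. The lowest was replicate 3 with water, replicate 3 with NH4Cl and replicate 1 with NaNO3, again for 4 of 4. Between the highest and the lowest of the 9 libraries, CPM differed 4.71-fold for NewGene_1816, 4.83-fold for BC629DRAFT_1583547, 5.72-fold for NewGene_1819 and 6.72-fold for BC629DRAFT_1292559.

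With NH4Cl against water, none of the 4 genes passed the test, which was edgeR's quasi-likelihood test with Benjamini-Hochberg adjustment over all 14808 genes and a threshold of 0.05. The share of all tested genes called in this comparison was 0.675%, with 0.277% higher and 0.398% lower. NewGene_1816 had a log2 fold change of 1.04 ± 0.49 (SE), a ratio of 2.05 with a 95% interval of 0.952 to 4.41 and an adjusted p of 0.295 by edgeR. BC629DRAFT_1583547 had 0.99 ± 0.50, a ratio of 1.98 with an interval of 0.903 to 4.34 and an adjusted p of 0.329 by edgeR. For both, the intervals held ratios from slightly below 1 to above 4, so that neither equality nor a severalfold difference lay outside them.

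The remaining genes had smaller estimates for NH4Cl against water. BC629DRAFT_1292559 had a log2 fold change of 0.32 ± 0.64 and NewGene_1819 one of 0.09 ± 0.70, with adjusted p of 0.832 and 0.965 by edgeR. The median over the 4 genes was 0.65, beside -0.02 over all tested genes. Of the 4 genes, NewGene_1816 alone had NH4Cl and water libraries that did not overlap in CPM. Across all tested genes that was true of 28.0%, and of 11.9% with NH4Cl higher.

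Other tools gave the same count of calls for NH4Cl against water. DESeq2 called 0 of 4, where it called 8.69% of its tested genes, and limma on log2(FPKM + 1) called 0 of 4, where it called 0.536%. The unadjusted p was under 0.05 for 0 of 4 genes by edgeR, where 18.8% of all genes were, and for 2 of 4 by both DESeq2 and limma, where 18.3% and 17.1% of all genes were. These 2 were NewGene_1816 and BC629DRAFT_1583547, which are not separate measurements. In the authors' deposited table, NewGene_1816 had a log2 fold change of 1.07 with a false discovery rate of 0.0431. In the authors' deposited table, BC629DRAFT_1583547 had 1.02 with a false discovery rate of 0.0648. The deposited calls required a false discovery rate of 0.01 and a fold of 2, and neither gene was called in the authors' deposited table. Without NH4Cl replicate 3 and NaNO3 replicate 1 edgeR again called 0 of 4 genes and 5.13% of all tested genes. NewGene_1816 then had an adjusted p of 0.0760 by edgeR, the lowest of any setting tried.

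With NaNO3 against water the estimates were small beside their errors. The log2 fold change was 0.26 for NewGene_1816, 0.27 for BC629DRAFT_1583547, 0.33 for BC629DRAFT_1292559 and 0.02 for NewGene_1819, with standard errors of 0.48 to 0.70. The adjusted p by edgeR ran from 0.775 to 0.991, and 0 of 4 genes were called in a comparison in which 5.06% of all tested genes were, 1.18% higher and 3.88% lower. DESeq2 and limma also called 0 of 4, beside 12.9% and 2.63% of their tested genes. Of the 4 genes, 0 had an unadjusted p under 0.05 by edgeR, DESeq2 or limma, where 24.7%, 24.2% and 21.4% of all genes did. After leaving out NH4Cl replicate 3 and NaNO3 replicate 1, edgeR again called 0 of 4, and 7.39% of all tested genes. The 95% interval of the NewGene_1819 ratio ran from 0.338 to 3.02, and that of NewGene_1816 from 0.559 to 2.55, so differences inside those bounds were not resolved.

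With NH4Cl against NaNO3, NewGene_1816 had a log2 fold change of 0.78 ± 0.48 and BC629DRAFT_1583547 one of 0.72 ± 0.50, with adjusted p of 0.388 and 0.434 by edgeR. NewGene_1819 and BC629DRAFT_1292559 were at 0.07 and -0.01. Again 0 of 4 genes were called by edgeR, DESeq2 and limma, beside 1.09%, 9.73% and 0.814% of all genes each tool tested. The edgeR share was made up of 0.594% higher and 0.5% lower. By each of the 3 tools 0 of 4 had an unadjusted p under 0.05, where 21.1%, 20.5% and 18.2% of all genes did by edgeR, DESeq2 and limma. All 4 genes overlapped between these groups in CPM, where 25.2% of all tested genes did not and 12.9% did not with NH4Cl higher. In the fit without the pair that stood apart, edgeR called 0 of 4, and 5.43% of all tested genes. The comparisons share libraries pairwise, so their values are not separate measurements.

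**Figure D2:**
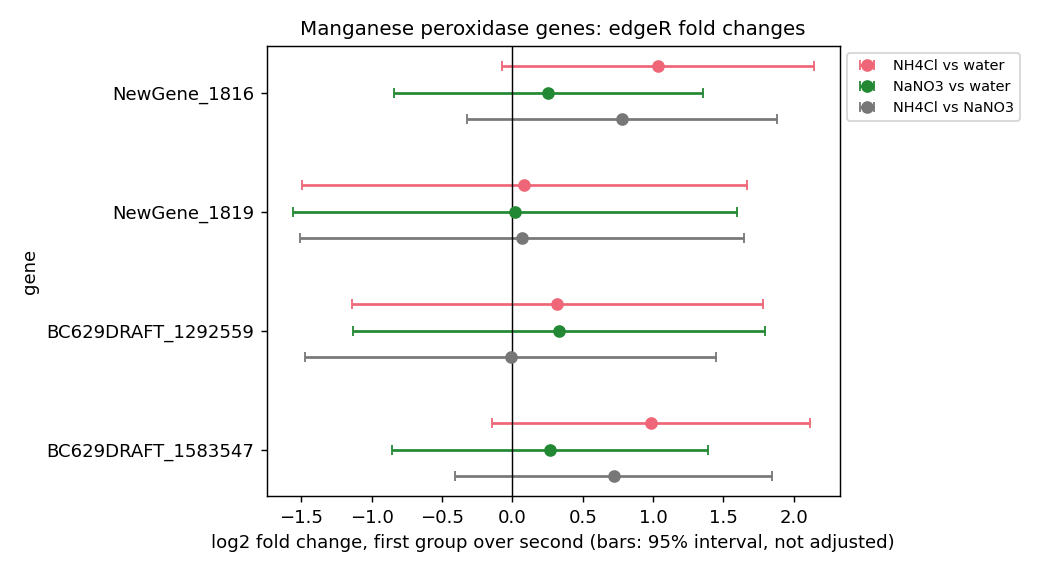
Log2 fold change of each manganese peroxidase gene in the 3 comparisons from edgeR, with bars for the unadjusted 95% interval. All 12 intervals cross 0, and the 2 farthest from it are NH4Cl against water for NewGene_1816 and BC629DRAFT_1583547, at 1.04 and 0.99.

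By how they varied, 2 of the genes formed a close pair and the others a looser one. NewGene_1816 and BC629DRAFT_1583547 kept a nearly fixed ratio: the counts of the former were 1.06 to 1.18 times those of the latter in all 9 libraries. As a description, Pearson r of their log2 CPM over the 9 libraries was 0.998, and 0.999 without NH4Cl replicate 3 and NaNO3 replicate 1. NewGene_1819 and BC629DRAFT_1292559 formed the other pair, with r of 0.911 over the 9 libraries and 0.995 without those 2 libraries. The count ratio of NewGene_1819 to BC629DRAFT_1292559 ran from 3.09 in NaNO3 replicate 1 to 7.57 in water replicate 3. Across the pairs, r was 0.835 to 0.862. The libraries share their groups and their scaling, which enter every such value.

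The near-fixed ratio has a limit of its own. The positions and sequences of the genes were not used here, and how the authors assigned reads that match several copies, and whether strand was used, is not given in the sources used here. Whether NewGene_1816 and BC629DRAFT_1583547 share reads was therefore not tested. The quotient of counts and FPKM reflects gene length. Relative to BC629DRAFT_1292559 it was 1.00 for BC629DRAFT_1583547 and 1.26 for NewGene_1819 in every library. For NewGene_1816 it was larger and ran from 1.78 to 1.88 between libraries, so it was not 1 fixed length. The FPKM levels and shares of NewGene_1816 carry that limit.

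The shares of 3 of the 4 genes in the summed FPKM of the group of 4 did not overlap between water and NH4Cl. The rate over all tested genes, 28.0%, is for CPM and is no yardstick for shares within a set. In CPM, NewGene_1816 alone of the 4 did not overlap. NewGene_1819 supplied 64.2%, 61.0% and 57.3% of the summed FPKM of the 4 genes with water, and 51.3%, 49.8% and 46.8% with NH4Cl. With NaNO3 it supplied 46.7%, 58.9% and 59.4%. The water and NH4Cl libraries did not overlap, and the NaNO3 libraries reached from below the lowest NH4Cl library into the water range. NewGene_1816 supplied 7.71% to 12.2% with water, 14.2% to 15.1% with NH4Cl and 9.24% to 13.0% with NaNO3, so that its NH4Cl libraries lay above all others. BC629DRAFT_1583547 supplied 13.2% to 20.9%, 22.7% to 24.0% and 15.8% to 21.2%, again with the NH4Cl libraries highest. BC629DRAFT_1292559 supplied 9.57% to 15.0% with water and 11.9% to 14.2% with NH4Cl, which overlapped. The 4 shares sum to the whole, so they are not separate measurements.

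The count ratio of NewGene_1819 to NewGene_1816 gives the same picture without use of gene length. It was 5.65, 4.05 and 3.15 with water and 2.56, 2.31 and 2.09 with NH4Cl, so each NH4Cl library lay below each water library. With NaNO3 it was 2.43, 3.91 and 4.31, which overlapped both. These ratios come from the same counts as the comparisons above, were looked at after those counts, and carry no test.

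**Figure D3:**
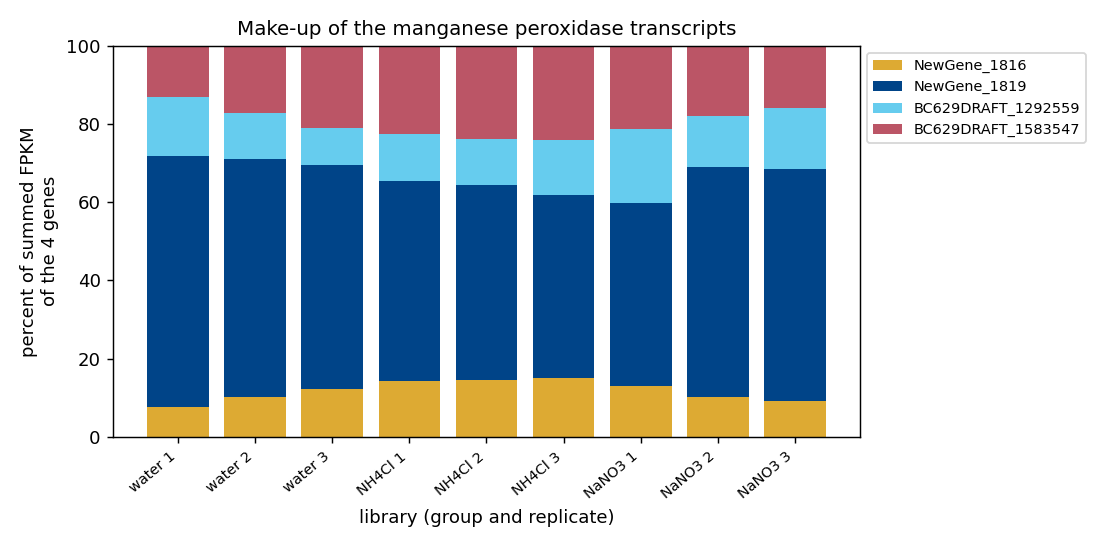
Each bar is 1 library and shows the percent of the summed FPKM of the 4 genes that each gene supplied. NewGene_1819 supplies 57.3% to 64.2% in the water libraries and 46.8% to 51.3% in the NH4Cl libraries.

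The pair of libraries that stood apart was picked by the low summed counts of the other class II peroxidases. That these sums dropped further there than those of the manganese peroxidases is therefore no separate result. The 12 other genes hold most transcripts of the class in 8 of 9 libraries: their summed FPKM was 1.91, 4.09 and 7.96 times that of the 4 manganese peroxidases with water, 2.30, 2.55 and 1.31 times with NH4Cl, and 0.580, 4.39 and 1.77 times with NaNO3. The ratio was below 1 in NaNO3 replicate 1 alone. In that library NewGene_2774, annotated as versatile peroxidase VPS1, had 397 CPM against 18620 to 30332 in the 7 libraries other than the pair that stood apart. BC629DRAFT_1589175, annotated as versatile peroxidase VPL1, had 278 CPM there against 13090 to 20735. The CPM of NewGene_2774 and BC629DRAFT_1589175 ran nearly in parallel over the 9 libraries, and whether they share reads was not tested. That limit also holds for the sums of the 12 genes. In CPM, 3 of the 4 manganese peroxidases also had their lowest value in NaNO3 replicate 1, and BC629DRAFT_1292559 had its lowest in water replicate 3. The summed CPM of the 4 was 5006 in NaNO3 replicate 1 and 5556 in water replicate 3, in which NewGene_2774 had 18620 CPM and BC629DRAFT_1589175 had 13090. Not every gene of the class followed: BC629DRAFT_1291806, also named versatile peroxidase VPS1, was highest in NH4Cl replicate 3, at 1231 CPM, and lowest in water replicate 3, at 9.16 CPM.

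**Figure D4:**
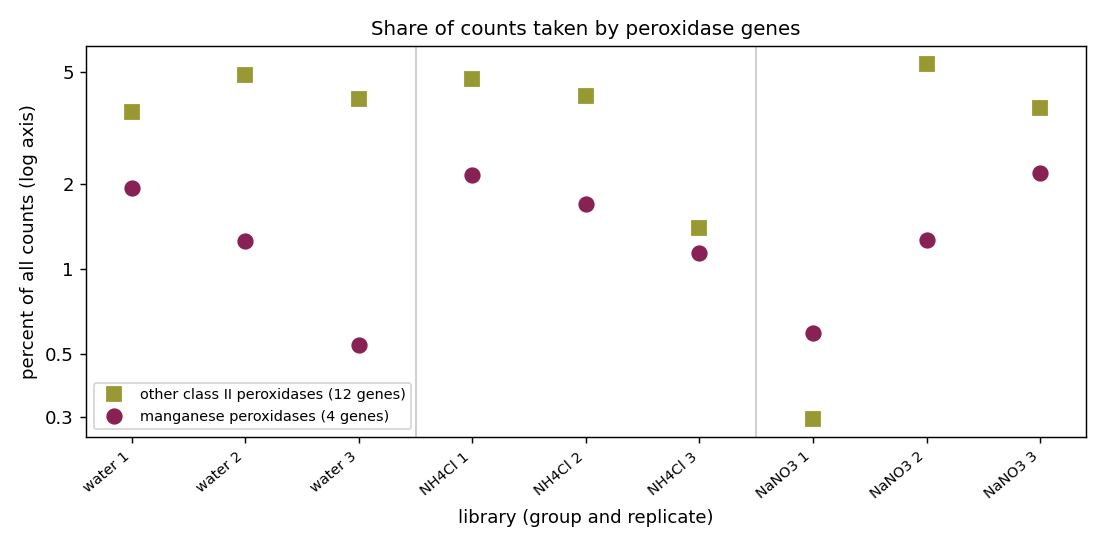
Percent of all counts in each library (log axis) taken by the 4 manganese peroxidases (circles) and by the 12 other class II peroxidases (squares). The squares drop to 1.40% in NH4Cl replicate 3 and 0.295% in NaNO3 replicate 1, by which these libraries were picked. The circles there are 1.14% and 0.594%, and the lowest circle, 0.538%, is in water replicate 3. In CPM the lowest sum of the 4 is instead in NaNO3 replicate 1, at 5006.

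Of the other class II peroxidases, 11 of 12 were tested and 0 were called in any of the 3 comparisons by edgeR, DESeq2 or limma. Of all tested genes edgeR called 0.675%, 5.06% and 1.09%, DESeq2 8.69%, 12.9% and 9.73%, and limma 0.536%, 2.63% and 0.814%. With the pair of libraries that stood apart left out, edgeR called 1 lower with NH4Cl in each of its comparisons, beside 5.13% and 5.43% of all tested genes. In the comparison of NH4Cl with water, 1 had an unadjusted p under 0.05 by edgeR, beside 18.8% of all genes. For NaNO3 against water and NH4Cl against NaNO3 the counts were 0 and 0, beside 24.7% and 21.1%. The list's median log2 fold changes in the 3 comparisons were 0.39, -0.34 and 0.08, beside -0.02, -0.03 and 0.02 over all tested genes. The most abundant, BC629DRAFT_1589175 and NewGene_2774, had log2 fold changes of -0.34 ± 1.09 and -0.37 ± 1.10 for NH4Cl against water. The fifth gene named Manganese peroxidase 3, BC629DRAFT_1591871, had a lower mean than each of the 4, at 534 FPKM over the 9 libraries. In NaNO3 replicate 1, at 1571 FPKM, it was above all of them but NewGene_1819. It had 506, 192 and 17.5 CPM with water, 117, 103 and 717 CPM with NH4Cl, and 1553, 511 and 1689 CPM with NaNO3. In CPM every NaNO3 library lay above every water library, the closest being 511 and 506, while in FPKM the groups overlapped, with 401 in the lowest NaNO3 and 412 in the highest water library. The log2 fold change for NaNO3 against water was 2.39 ± 1.15 with an adjusted p of 0.239 by edgeR, so it was not called. In 33.0% of all tested genes the NaNO3 and water libraries did not overlap in CPM, and in 14.2% with NaNO3 higher.

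Hydrogen peroxide for these enzymes is supplied by secreted oxidases, such as the copper enzyme glyoxal oxidase and flavin-dependent alcohol oxidases. A list of 53 genes was drawn up for them by product and domain names, and 48 were tested. The list is mixed: 30 genes have a GMC oxidoreductase domain, many of them named as dehydrogenases, and 12 have a galactose oxidase central domain, among them kelch-repeat proteins. By edgeR 1 rose and 0 fell with NH4Cl against water, 0 rose and 2 fell with NaNO3 against water, and 1 rose and 0 fell with NH4Cl against NaNO3. These are 1, 2 and 1 of 48, beside 0.675%, 5.06% and 1.09% of all tested genes. DESeq2 called 3 up and 2 down, 5 up and 4 down, and 5 up and 1 down, beside 8.69%, 12.9% and 9.73% of its tested genes. The unadjusted p was under 0.05 for 5 up and 3 down, 10 up and 5 down, and 6 up and 6 down, beside 18.8%, 24.7% and 21.1%. After leaving out NH4Cl replicate 3 and NaNO3 replicate 1, edgeR called 1 up and 1 down, 1 up and 3 down, and 1 up and 0 down. Of all tested genes it then called 5.13%, 7.39% and 5.43%. The gene higher with NH4Cl in both comparisons was BC629DRAFT_1598350, annotated as aldehyde oxidase GLOX, a glyoxal oxidase relative. It had 46.0, 23.7 and 15.6 CPM with water, 208, 265 and 890 CPM with NH4Cl, and 28.6, 32.9 and 35.6 CPM with NaNO3. Its log2 fold change was 4.0 ± 0.64 against water and 3.81 ± 0.63 against NaNO3, with adjusted p of 0.0420 and 0.0416 by edgeR. Without NH4Cl replicate 3, its highest library, the values fell to 3.11 and 2.89, and without both libraries that stood apart to 3.07 and 2.79, with adjusted p of 0.0165 and 0.0202 by edgeR.

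That gene's NH4Cl libraries lay above all 6 other libraries, and the highest was NH4Cl replicate 3, in which the manganese peroxidases were at their lowest for the group. Its call against water was lost when any of 6 of the 9 libraries was left out in turn, with adjusted p of 0.0713 to 0.197 by edgeR. It held without NH4Cl replicate 1, NH4Cl replicate 3 or NaNO3 replicate 1. The call against NaNO3 was lost for 8 of 9, with adjusted p of 0.0511 to 0.106 by edgeR, and held without NH4Cl replicate 3. Both calls were also lost with only the groups compared in the fit, with adjusted p of 0.0620 and 0.102 by edgeR.

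The genes that fell with NaNO3 were BC629DRAFT_1529016 and NewGene_2209, both with a galactose oxidase central domain and no product name. Their log2 fold changes were -1.04 ± 0.18 and -1.13 ± 0.20, with adjusted p of 0.0235 and 0.0251 by edgeR. The CPM of both genes ran nearly in parallel over the 9 libraries, and whether they share reads was not tested. Each call was lost when any of the 3 water libraries, NaNO3 replicate 2 or NaNO3 replicate 3 was left out, with adjusted p up to 0.103 by edgeR. The most abundant oxidases were not called: alcohol oxidase 1, BC629DRAFT_1437735, had a log2 fold change of -0.59 ± 0.78 for NH4Cl against water, and the GLOX gene NewGene_3380 had -0.91 ± 1.07. The list's medians were -0.09, -0.12 and -0.01 in the 3 comparisons, beside -0.02, -0.03 and 0.02 over all tested genes.

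Oxalate, which chelates Mn3+, is broken down by oxalate decarboxylase. All 9 genes of the oxalate list were tested. With NH4Cl, 0 rose or fell against water or against NaNO3 by edgeR, beside 0.675% and 1.09% of all tested genes. The unadjusted p by edgeR was under 0.05 for 4 up and 2 down against water, and for 2 up and 1 down against NaNO3. Of all genes it was for 18.8% and 21.1% in either direction. DESeq2 called 1 up and 2 down against water, and 2 up and 0 down against NaNO3, beside 8.69% and 9.73% in either direction. With NaNO3 against water 0 rose and 1 fell by edgeR, beside 5.06% of all tested genes. In the fit without the pair that stood apart, edgeR called 1 up with NH4Cl in each of its comparisons, and 1 down with NaNO3 against water. That fit called 5.13% of all tested genes for NH4Cl against water, 5.43% for NH4Cl against NaNO3 and 7.39% for NaNO3 against water. The gene that fell, BC629DRAFT_102836, has a domain of transcription factor TFIIIC and entered the list through a KEGG name, oxalate-CoA ligase. Its log2 fold change was -0.71 ± 0.16 with an adjusted p of 0.0431 by edgeR, and the call was lost when any of the 9 libraries was left out, with adjusted p of 0.0555 to 0.138, and was lost with limma, at 0.146, and with only the groups compared in the fit, at 0.0866. The most abundant oxalate decarboxylase, BC629DRAFT_1590463, had 22.9, 31.4 and 49.2 CPM with water, 534, 570 and 55.7 CPM with NH4Cl, and 4.33, 35.1 and 22.9 CPM with NaNO3. Its NH4Cl libraries lay above all others, with NH4Cl replicate 3 close to the highest water library. The log2 fold change was 3.49 ± 0.95 against water and 4.22 ± 0.99 against NaNO3, with adjusted p of 0.108 and 0.0750 by edgeR, so it was not called. NH4Cl replicate 3 is one of the pair that stood apart, and the estimate for this gene without that pair is not given here.

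Manganese is the substrate of these enzymes, and 12 of 12 genes of the manganese transport list were tested. By edgeR 0 rose or fell with NH4Cl against water, where 0.675% of all tested genes were called. The unadjusted p was under 0.05 with a lower value for 10 of 12, against 18.8% of all tested genes in either direction. The list's median log2 fold change there was -0.89, beside -0.02 over all tested genes. DESeq2 called 8 genes lower, beside 8.69% of its tested genes in either direction. With NaNO3 against water 0 rose and 1 fell, beside 5.06% of all tested genes. With NH4Cl against NaNO3 0 rose and 2 fell, beside 1.09%. With the pair of libraries that stood apart left out, edgeR called 6, 1 and 5 lower in the 3 comparisons. In that fit 5.13%, 7.39% and 5.43% of all tested genes were called in either direction. The list is mixed. In it, 6 genes have an oligopeptide transporter domain, and these and a gene named calcium channel YVC1 entered through the KEGG name for a manganese-transporting ATPase. Of the rest, 3 have an Nramp metal transporter domain, 1 an ATPase domain and 1 a sugar transporter domain. The 10 genes lower with NH4Cl against water at an unadjusted p under 0.05 by edgeR included some of these.

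All 3 genes called by edgeR in the fit of all 9 libraries had an oligopeptide transporter domain or the name calcium channel YVC1. BC629DRAFT_268540, named glutathione transporter 1, had a log2 fold change of -1.15 ± 0.23 for NaNO3 against water and an adjusted p of 0.0315 by edgeR. BC629DRAFT_1276152, with the same product name, had -1.72 ± 0.27 for NH4Cl against NaNO3 and an adjusted p of 0.0348. BC629DRAFT_1599486, the YVC1 gene, had -1.44 ± 0.19 in that comparison and an adjusted p of 0.0216, at under 10 CPM in every library. These calls were lost for 5, 7 and 5 of the 9 libraries left out in turn, with adjusted p of 0.0568 to 0.120. All 3 were lost with only the groups compared in the fit, at up to 0.113, and the first and second with limma, at 0.0544 and 0.0729. The call of the first held without water replicate 1 or any NH4Cl library, that of the second without NH4Cl replicate 3 or NaNO3 replicate 1, and that of the third without those 2 or water replicate 1 or 3.

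The most abundant gene of the list, BC629DRAFT_861597, is named manganese transporter pdt1 and holds the Nramp metal transporter domain. It had 465 to 567 CPM with water, 803, 611 and 149 CPM with NH4Cl, and 21.4, 707 and 431 CPM with NaNO3. For NH4Cl against water its log2 fold change was 0.01 ± 0.96, so it was not among the genes lower there. Its lowest values were in NH4Cl replicate 3 and NaNO3 replicate 1, as were those of NewGene_2774 and BC629DRAFT_1589175. The second, NewGene_1207, an oligopeptide transporter gene, had a log2 fold change of -2.09 ± 0.61 for NH4Cl against water, with an adjusted p of 0.124 by edgeR.

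Each peroxidase molecule carries a haem. The haem synthesis list is mixed and holds no gene named aminolevulinate synthase. In it, BC629DRAFT_1278296 is named siroheme biosynthesis protein met8, and BC629DRAFT_1587515 a probable uroporphyrinogen-III C-methyltransferase. The counts that follow are for the whole list. Of its 15 genes 14 were tested. By edgeR 0 rose or fell in any comparison, beside 0.675%, 5.06% and 1.09% of all tested genes. With NaNO3 against water 2 had an unadjusted p under 0.05 by edgeR and DESeq2 called 2 higher, beside 24.7% and 12.9% of all genes in either direction. After leaving out NH4Cl replicate 3 and NaNO3 replicate 1, edgeR called 1 higher there, beside 7.39% of all tested genes in either direction. In the other comparisons these counts were 0. Porphobilinogen deaminase, BC629DRAFT_1590045, had a log2 fold change of 0.97 ± 0.36 for NaNO3 against water with an adjusted p of 0.139 by edgeR. Ferrochelatase, BC629DRAFT_1585585, which inserts the iron, had -0.13 ± 0.29.

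Genes whose log2 CPM over the 9 libraries was most like that of each manganese peroxidase were sought among 4212 tested genes with a product name and a mean of at least 5 FPKM. For NewGene_1816 the first was BC629DRAFT_1583547, and the reverse. The next for both were BC629DRAFT_1439650, an aldo-keto reductase, with Pearson r of 0.974 and 0.977, the cytochrome P450 gene BC629DRAFT_1641869, with r of 0.946 and 0.944, and BC629DRAFT_1016309, a syntaxin named psy1, with r of 0.937 and 0.927. Their CPM spanned only 1.82-fold, 1.62-fold and 1.60-fold over the 9 libraries, against 4.71-fold for NewGene_1816.

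For NewGene_1819 the closest were BC629DRAFT_1579200, a ribose-phosphate pyrophosphokinase, with r of 0.952, BC629DRAFT_1144159, a homogentisate dioxygenase of aromatic amino acid breakdown, with r of 0.942, and NewGene_1848, an acyl-CoA ligase, with r of 0.934. Leaving out the pair that stood apart, these were 0.900, 0.882 and 0.941. For BC629DRAFT_1292559 they were BC629DRAFT_1582648, an RNA polymerase III subunit, BC629DRAFT_1282942, the kinase YPK1, and BC629DRAFT_1515992, the splicing protein ubp10, with r of 0.951, 0.924 and 0.921. These are the highest of 4212 values over 9 libraries and are given as a description.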

How the data were processed

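Polyadenylated RNA from 1 μg of total RNA was sequenced, per the labels' protocols. HISAT2 and StringTie are named in the submitters' processing notes, without versions. The authors deposited 1 table with whole-number counts and FPKM per gene and library, annotation, and their own comparisons with fold changes and false discovery rates, from DESeq2 per the file headers. The counting tool, strand setting and genome build are not given in the sources used here. The signs of the deposited fold changes were turned to give the first-named group over the second.

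The test was edgeR 4.0.16's quasi-likelihood test on counts (1 fit of all 9 libraries by group, 3 contrasts, filterByExpr, TMM; common biological coefficient of variation 0.317) in R 4.3.3. Alternatives were DESeq2 1.42.0, limma 3.58.1 on log2(FPKM + 1) with a mean FPKM of at least 0.5, other scalings and filters, a replicate block, and leaving out libraries. The edgeR, DESeq2 and limma steps were tested on simulated data, where unchanged genes made up a larger share of the calls than the threshold for all 3 tools, and the largest for DESeq2. Log2 CPM used a prior count of 2. Levels between genes are compared in FPKM.

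The 4 genes and the pathway lists, which are word patterns on the annotation columns, were chosen with earlier results of these data known. Named were the 4 genes, the 3 genes most like each, and from each list the 2 with the highest mean FPKM and up to 3 called. BC629DRAFT_1591871, BC629DRAFT_1291806 and the domains of list genes were picked out after their values were seen. Sequences were not used here.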

Additional observations from a re-analysis of the deposited data

How the results depend on the processing

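No setting called any of the 4 genes in any comparison. Over 19 alternative settings the adjusted p ran from 0.0760 to 0.988 for NH4Cl against water, 0.284 to 0.997 for NaNO3 against water and 0.258 to 1.00 for NH4Cl against NaNO3. NewGene_1816 and BC629DRAFT_1583547 kept a positive log2 fold change for NH4Cl against water and against NaNO3 in all of them. Apart from leaving out 1 library, signs turned for 10 estimates. NewGene_1819 was at -0.01 for NaNO3 against water in the 3 limma settings. For NH4Cl against NaNO3 it was at -0.08 with the replicate block and -0.10 without NH4Cl replicate 3 and NaNO3 replicate 1, an alternative chosen after seeing the data. BC629DRAFT_1292559 in that comparison was at 0.05 with upper-quartile scaling, 0.02 with no low-count filter and 0.12 in the 3 limma settings. The cause was not tested.

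With each library left out in turn, 92 estimates kept their sign and 16 turned. For NH4Cl against water the range was 0.76 to 1.31 for NewGene_1816, 0.71 to 1.28 for BC629DRAFT_1583547, -0.11 to 1.06 for BC629DRAFT_1292559 and -0.29 to 0.64 for NewGene_1819. For NaNO3 against water it was -0.14 to 0.60, -0.12 to 0.62, -0.22 to 1.08 and -0.55 to 0.57 in that order, and for NH4Cl against NaNO3 0.49 to 1.22, 0.41 to 1.15, -0.31 to 0.59 and -0.32 to 0.69. Leaving out water replicate 3 turned the most, 6 estimates: it took BC629DRAFT_1292559 to -0.11 and NewGene_1819 to -0.29 for NH4Cl against water.

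No pairing of the libraries by replicate number was seen: same-numbered libraries had deviations from their group means that correlated at -0.28 to 0.286, and the best match had the same number in 4 of 18 cases. Whether same-numbered libraries shared a culture or a day is not given in the labels and was not tested. With the replicate block all 8 calls of list genes were lost, with adjusted p of 0.0688 to 0.115 by edgeR. In it NewGene_1816 kept 1.04 for NH4Cl against water, with an adjusted p of 0.410 by edgeR. Over all genes edgeR called 100, 749 and 162 in the 3 comparisons, 0, 0 and 3 with the block, 48, 527 and 136 with no filter, 10, 492 and 12 with only the groups compared fitted, and 765, 1102 and 810 without NH4Cl replicate 3 and NaNO3 replicate 1. DESeq2 called 1198, 1940 and 1403, and limma 79, 387 and 120, or 18, 334 and 97 with a pseudocount of 0.1 and 9, 320 and 110 with no FPKM filter. The 4 genes had at least 7558 counts in every library.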
